A study of Mus musculus with 2 samples.

Results

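A set of 10 genes, 9 of prostaglandin production, reception and breakdown and 1 encoding the lysophosphatidic acid (LPA) receptor LPA3, was followed in intact uteri taken from 2 mice at day 4 of pregnancy. The genes were chosen by symbol: Pla2g4a, Ptgs1, Ptgs2, Ptges, Ptgis, Ptger2, Ptger4, Ptgfr, Hpgd and Lpar3. All 10 were found among the 22740 genes of the deposited table. Both animals were C57BL/6 mice titled WT and belong to 1 group, with no treatment, age or second group given in the labels. RNA came from the intact organ, so epithelium, stroma and muscle were measured together. In such bulk tissue, fewer cells of a type and less RNA per cell cannot be told apart.

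Prostaglandins are short-lived lipid signals made from arachidonic acid. A cytosolic phospholipase A2, encoded by Pla2g4a, frees arachidonic acid from membranes, and the cyclooxygenases encoded by Ptgs1 (COX-1) and Ptgs2 (COX-2) turn it into prostaglandin H2. Terminal synthases then make prostaglandin E2 (Ptges), prostacyclin (Ptgis) and the other prostanoids, which act through G-protein-coupled receptors on nearby cells and are inactivated by the dehydrogenase encoded by Hpgd. In the mouse uterus these signals act in embryo spacing, vascular permeability and the stromal reaction at implantation, and the LPA receptor encoded by Lpar3 is known to act upstream of them.

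The 2 cyclooxygenase genes catalyse the same step and stood farthest apart of the 5 balances between paired genes compared here. Lpar3 encodes the receptor placed upstream of the prostaglandin signals. The 250 bases before the deposited transcript start of these 3 genes are therefore shown, 5′ to 3′ on the strand of the gene, from mouse genome build NCBIM37 (the same assembly as mm9). The windows are chr2:36085696-36085945 (plus strand) for Ptgs1, chr1:151947004-151947253 (plus strand) for Ptgs2 and chr3:145883675-145883924 (plus strand) for Lpar3. Capitals mark matches on either strand to any of 8 searched motifs.
Ptgs1: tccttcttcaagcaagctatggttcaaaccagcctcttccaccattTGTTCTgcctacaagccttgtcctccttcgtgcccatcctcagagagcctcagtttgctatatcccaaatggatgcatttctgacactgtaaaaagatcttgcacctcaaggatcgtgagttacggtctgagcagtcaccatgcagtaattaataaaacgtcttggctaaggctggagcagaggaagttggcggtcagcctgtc
Ptgs2: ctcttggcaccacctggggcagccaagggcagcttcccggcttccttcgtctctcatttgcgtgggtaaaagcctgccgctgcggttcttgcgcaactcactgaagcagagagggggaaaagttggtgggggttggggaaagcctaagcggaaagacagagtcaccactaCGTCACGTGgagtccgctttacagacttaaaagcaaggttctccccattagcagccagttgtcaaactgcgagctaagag
Lpar3: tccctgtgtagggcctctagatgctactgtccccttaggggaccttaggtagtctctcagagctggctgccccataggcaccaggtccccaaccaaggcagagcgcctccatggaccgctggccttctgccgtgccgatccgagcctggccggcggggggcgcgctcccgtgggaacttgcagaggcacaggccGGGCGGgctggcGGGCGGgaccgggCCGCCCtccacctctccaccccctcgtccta

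The motifs of general promoters were TATAAA, known as a core promoter element, CCAAT, read by nuclear factor Y, and GGGCGG, read by Sp factors. Those of signalling were CGTCA, which is part of the cyclic AMP response element, CACGTG, known as the E-box, and TGANTCA, which binds AP-1. Those of hormone receptors were AGAACA, a half-site of the progesterone and glucocorticoid receptors, and AGGTCA, a half-site of the oestrogen receptor. The Ptgs2 window held CGTCA, starting 80 bases before the transcript start, and CACGTG, starting 77 bases before it, and the matches overlap. Of 22663 windows of the same length, 20.7% held CGTCA and 6.65% held CACGTG. The Ptgs1 window held AGAACA alone, on the opposite strand with its first base 204 bases before the start, which 13.8% of all windows held. The Lpar3 window held GGGCGG 3 times, 1 of them on the opposite strand, and 43.3% of all windows held it at least 1 time. Neither TATAAA (11.9% of windows) nor TGANTCA (6.13%) was found before any of the 10 genes. CCAAT (35.6%) was found before Ptger2 only among the 10, and AGGTCA (12.3%) before 3, Pla2g4a, Ptger4 and Ptgfr. GC content was 48.0% in the Ptgs1 window, 55.6% in that of Ptgs2 and 69.6% in that of Lpar3, against a median of 55.6% over all windows. A match describes the letters of the window and is not a measured site.

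Levels are the authors' RPKM, reads scaled to transcript length and library total, which allows genes to be compared per unit of length. Whole reads behind the values were recovered from the steps of the RPKM scale, and the reads of all genes summed to 3837285 in uterus 1 and 4268590 in uterus 2. Intervals are exact 95% Poisson or binomial intervals and cover counting error only, not variation between animals or libraries. They may be too narrow even for counting error, since copies made by PCR are not independent molecules. Markers of the organ and its compartments were present. All 6 uterine identity genes (Esr1, Pgr, Hoxa10, Hoxa11, Ihh and Lif) were at 1 RPKM or more in both uteri, as were all 8 stromal, all 6 smooth muscle, all 5 endothelial, all 6 leukocyte and all 5 mast cell markers, and 7 of 8 epithelial markers. The summed level of the epithelial markers was 389.6 RPKM in uterus 1 and 415.7 RPKM in uterus 2, and that of the stromal markers 5385 and 5174 RPKM. The smooth muscle markers summed to 2025 and 2017 RPKM, the endothelial to 152.7 and 145.6 RPKM, the leukocyte to 297 and 321 RPKM and the mast cell markers to 30.3 and 33.9 RPKM. Platelet markers, whose cells are a known source of Ptgs1 and Tbxas1, summed to 7.94 and 3.82 RPKM. Pf4 and Itga2b, 2 of these 5, were at 1 RPKM or more in both uteri, and Ppbp and Gp9 were listed at 0. Ovary and oviduct markers summed to 11.7 and 16.7 RPKM. Of these, 3 of 6 (Ovgp1, Star and Inha) were at 1 RPKM or more in both uteri, and Cyp19a1 was listed at 0. Blastocyst markers summed to 2.60 and 2.15 RPKM, with 0 of 5 at that level in both uteri and Cdx2 listed at 0. Decidua markers summed to 3.89 and 2.87 RPKM, with 2 of 4 (Bmp2 and Wnt4) at that level in both and Prl8a2 and Prl3c1 listed at 0. The part of any of these cells in the levels below was not tested.

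Of the 10 genes, 9 were detected, meaning at 1 RPKM or more in both uteri, against 58.4% of all genes in the table. Of these, 6 genes, Ptger4, Pla2g4a, Ptgis, Ptgs1, Hpgd and Lpar3, were at 10 RPKM or more in both, against 30.4% of all genes. The exception to detection was Ptgs2. Over the 10 genes the median of the mean levels was 15.4 RPKM. The median over all 22740 genes, 5314 of them at 0 in both uteri, was 3.23 RPKM, and that over the detected genes was 11.4 RPKM. The order from high to low was Ptger4, Pla2g4a, Ptgis, Ptgs1, Hpgd, Lpar3, Ptgfr, Ptges, Ptger2 and Ptgs2. Of the 9 pairs of neighbours in this order, 3 had library values that overlapped and changed places between the uteri: Ptgis with Ptgs1, Hpgd with Lpar3, and Ptgfr with Ptges. The largest step between neighbours, 16.0-fold, separated Ptger2 from Ptgs2, and the next largest, 2.42-fold, separated Lpar3 from Ptgfr.

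**Figure D1:**
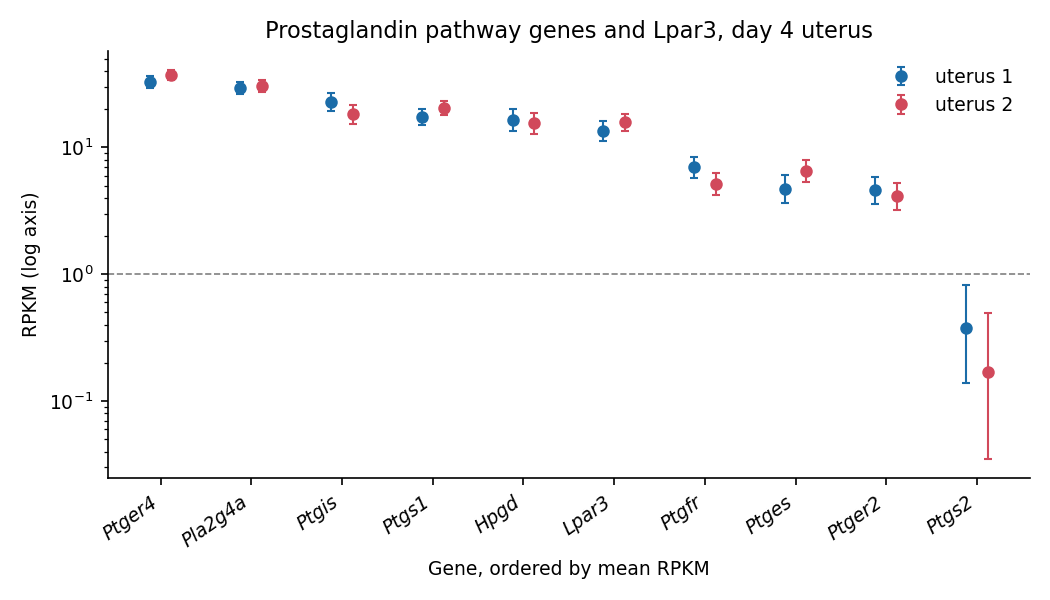
RPKM (log axis) of the 10 genes in uterus 1 and uterus 2, ordered by mean, with exact 95% Poisson intervals as bars and the detection threshold of 1 RPKM as a dashed line. Here 6 genes lie above 10 RPKM in both uteri, 3 lie between 4 and 7 RPKM, and Ptgs2 lies below the line in both with its whole interval.

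The first step of the pathway was represented by a high level of the cytosolic phospholipase gene. Pla2g4a (NM_008869, chromosome 1, minus strand, 151676752 to 151808414, 18 exons) lay at 29.4 RPKM in uterus 1, on 321 reads, and at 30.5 RPKM in uterus 2, on 369 reads. Its mean of 29.9 ± 0.740 RPKM (SD, n = 2) placed it at percentile 89.8 of all genes. Both libraries gave nearly the same value, and their counting intervals (26.3 to 32.8 and 27.4 to 33.7 RPKM) overlapped almost fully. Among the 20 phospholipase A2 and related acyl hydrolase genes of the list for release of arachidonic acid, 6 were detected in both uteri and 6 were listed at 0 in both. Pla2g4a was the highest of them. Pla2g10, a secreted phospholipase A2, followed at 18.9 ± 0.366 RPKM, and the lysosomal Pla2g15 at 11.2 ± 1.56 RPKM. The 5 other group IV genes, the closest relatives of Pla2g4a, reached at most 0.419 RPKM on average, in Pla2g4b.

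The cyclooxygenase step was carried almost entirely by Ptgs1 transcripts. Ptgs1 (NM_008969, chromosome 2, plus strand, 36085946 to 36107789, 11 exons), the cyclooxygenase generally described as constitutive, lay at 17.5 (uterus 1) and 20.5 RPKM (uterus 2), on 192 and 250 reads. Its mean was 19.0 ± 2.14 RPKM (SD, n = 2), percentile 81.9 of all genes. Ptgs2 (NM_011198, chromosome 1, plus strand, 151947254 to 151955142, 10 exons), the inducible cyclooxygenase, lay at 0.378 (uterus 1) and 0.170 RPKM (uterus 2), on 6 and 3 reads. The 2 genes did not overlap in any library. The upper counting limits of Ptgs2, 0.822 RPKM in uterus 1 and 0.497 RPKM in uterus 2, stayed under 1 RPKM, so its place below the detection threshold does not rest on too few reads.

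Within uterus 1 the level of Ptgs1 was 46.3 times that of Ptgs2 (95% interval 20.9 to 127.8), and within uterus 2 it was 120.6 times (40.8 to 588.8). The difference between these balances was not tested. On the log2 scale with a pseudocount of 0.1 RPKM the balance was 5.73 ± 0.74 (SD, n = 2), and the pseudocount of 1 RPKM lowered it to 3.97, as it weighs on the low Ptgs2 values. Of the summed RPKM of both cyclooxygenases, Ptgs2 held 2.11% in uterus 1 and 0.822% in uterus 2. Ptgs2 and Pla2g4a are close neighbours on chromosome 1, with 138.8 kb between them and 1 other gene of the table in that gap, and yet Pla2g4a lay at percentile 89.8 and Ptgs2 at percentile 32.1 of all genes.

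Both terminal synthase genes among the 10 were detected, prostacyclin synthase above the inducible prostaglandin E synthase. Ptgis (NM_008968, chromosome 2, minus strand, 167028696 to 167066037, 10 exons) lay at 22.8 (uterus 1) and 18.2 RPKM (uterus 2), on 153 and 136 reads, with a mean of 20.5 ± 3.21 RPKM (SD, n = 2). Ptges (NM_022415, chromosome 2, minus strand, 30744991 to 30758817, 3 exons), the microsomal prostaglandin E synthase, lay at 4.72 (uterus 1) and 6.51 RPKM (uterus 2), on 66 and 101 reads, with a mean of 5.61 ± 1.26 RPKM. Ptgis was higher than Ptges in both libraries, by 4.83-fold in uterus 1 (95% interval 3.60 to 6.55) and by 2.80-fold in uterus 2 (2.15 to 3.66). Uterus 1 was the higher library for Ptgis and the lower for Ptges. At the reads taken, the intervals of the balance overlap only from 3.60 to 3.66. With the smallest reads that the values of Ptgis allow, 9 and 8, they overlap widely. They then run from 2.12 to 9.73 in uterus 1 and from 1.18 to 5.74 in uterus 2. The difference between the 2 balances was not tested.

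Of the 17 genes in the list of cyclooxygenases and terminal synthases, 12 were detected in both uteri. Ptges3, also known as the Hsp90 co-chaperone p23, was the highest at 148 ± 10.9 RPKM, and Ptges2, a second membrane-associated prostaglandin E synthase, lay at 8.29 ± 0.0151 RPKM. The carbonyl reductases, enzymes with many substrates besides prostaglandins, lay at 120.3 ± 25.2 RPKM for Cbr2, 21.8 ± 0.493 RPKM for Cbr1 and 20.4 ± 1.20 RPKM for Cbr3. Akr1b8, an aldo-keto reductase, lay at 17.7 ± 0.168 RPKM, and its relative Akr1b7 at 1.67 (uterus 1) and 0.753 RPKM (uterus 2), on at most 8 and 4 reads. Akr1b3, encoding aldose reductase, which has been described as a prostaglandin F synthase in other settings, was listed at 0 in both uteri. Reads of near-identical copies could be split or dropped in such families, so a listed 0 is not read as absence. The haematopoietic prostaglandin D synthase gene Hpgds lay at 4.55 ± 0.389 RPKM and the thromboxane synthase gene Tbxas1 at 5.01 ± 1.31 RPKM, whereas Ptgds, the other prostaglandin D synthase, lay at 0.924 ± 0.0681 RPKM on 3 reads in each library.

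**Figure D2:**
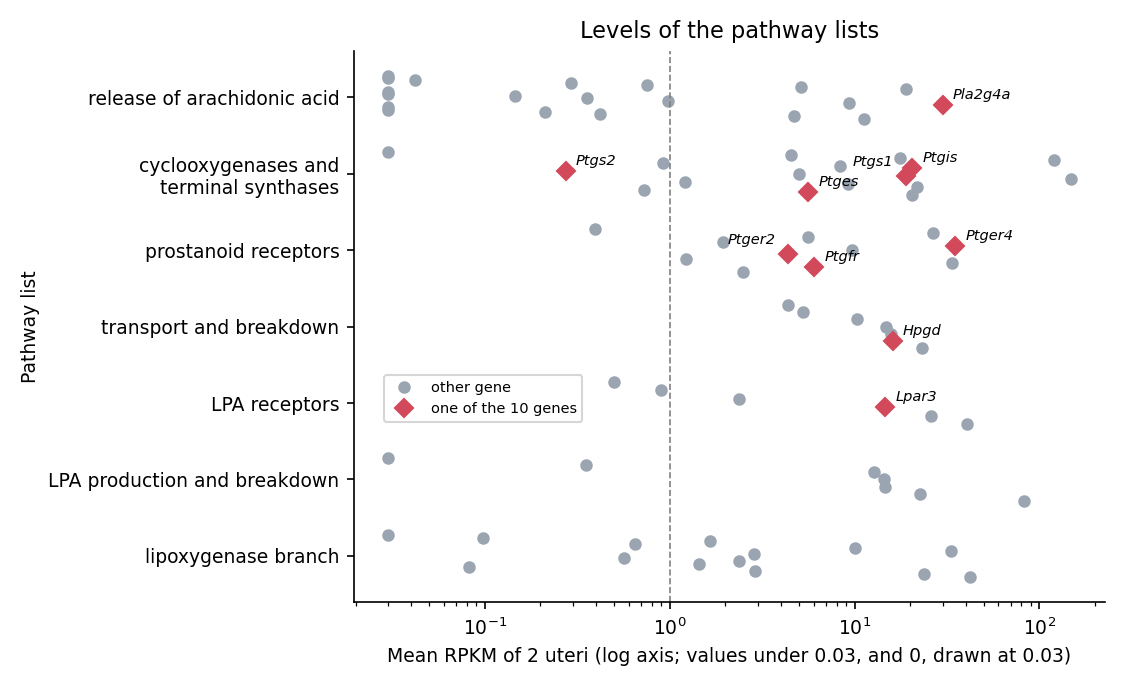
Mean RPKM of 2 uteri (log axis) for the 82 analysed genes of 7 pathway lists, with the 10 genes as labelled diamonds, the other genes as grey points and 1 RPKM as a dashed line. Pla2g4a is the highest gene of its list and Ptger4 has the highest mean of the prostanoid receptors, while Ptgs2 is the only diamond left of the dashed line.

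Of the 3 prostanoid receptor genes among the 10, Ptger4 was the highest in both libraries. Ptger4 (NM_008965, chromosome 15, minus strand, 5183865 to 5193831, 3 exons), the EP4 receptor for prostaglandin E2, lay at 32.7 (uterus 1) and 37.1 RPKM (uterus 2). These values stand for 372 and 468 reads at a transcript length of 2966 bases, or for 186 and 234 reads if the authors' length was the smallest the values allow. Its mean of 34.9 ± 3.08 RPKM (SD, n = 2) was the highest of the 10 genes, at percentile 91.7 of all genes. Ptger2 (NM_008964, chromosome 14, plus strand, 45607786 to 45623495, 2 exons), the EP2 receptor for the same ligand, lay at 4.64 (uterus 1) and 4.12 RPKM (uterus 2), on 67 and 66 reads. Both receptors raise cyclic AMP. Ptger4 was higher than Ptger2 by 7.05-fold in uterus 1 (95% interval 5.43 to 9.29) and by 9.01-fold in uterus 2 (6.95 to 11.8), with intervals taken at the larger read numbers of Ptger4. An antisense transcript, Gm17173, is annotated across Ptger2 in GENCODE M1 and shares 0 of its 3684 exonic bases, and the use of strand in counting is not given in the sources used here.

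Ptgfr (NM_008966, chromosome 3, minus strand, 151461574 to 151500492, 3 exons), the receptor for prostaglandin F2 alpha, which raises calcium and drives contraction and luteal regression in other settings, lay at 6.97 (uterus 1) and 5.16 RPKM (uterus 2), on 118 and 97 reads. Its mean was 6.07 ± 1.28 RPKM (SD, n = 2). Ptger2 was lower than Ptgfr in both libraries.

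All 9 prostanoid receptor genes had reads in both uteri. Ptger3, the EP3 receptor, which lowers cyclic AMP, lay at 33.7 ± 2.40 RPKM, with 35.4 RPKM in uterus 1 and 32.0 RPKM in uterus 2. It was above Ptger4 in uterus 1 and below it in uterus 2, so the order of the pair is not set by these libraries. Ptger1, the EP1 receptor, lay at 9.67 ± 1.38 RPKM. The prostacyclin receptor gene Ptgir lay at 2.48 ± 0.0260 RPKM, the thromboxane receptor gene Tbxa2r at 1.94 ± 0.143 RPKM, and the prostaglandin D2 receptor genes Gpr44 (now Ptgdr2) and Ptgdr at 1.22 ± 0.222 and 0.393 ± 0.139 RPKM. Ptger4 held 33.8% of the summed RPKM of these 9 genes in uterus 1 and 40.0% in uterus 2, Ptger3 36.6% and 34.5%, Ptgfr 7.20% and 5.57%, and Ptger2 4.79% and 4.44%. The 4 receptors that raise cyclic AMP (Ptger2, Ptger4, Ptgir and Ptgdr) held 41.7% and 47.4%, and the 3 that raise calcium (Ptgfr, Ptger1 and Tbxa2r) 20.3% and 16.9%. Prostacyclin synthase was among the higher of the 10 genes, while the receptor for its product had a low level next to the prostaglandin E2 receptors. The same list held 2 further genes. Ppard, a nuclear receptor described as a target of prostacyclin in the uterus, lay at 5.61 ± 1.01 RPKM, and Ptgfrn, encoding a membrane protein named for its action on the prostaglandin F2 receptor, at 26.5 ± 2.98 RPKM.

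**Figure D3:**
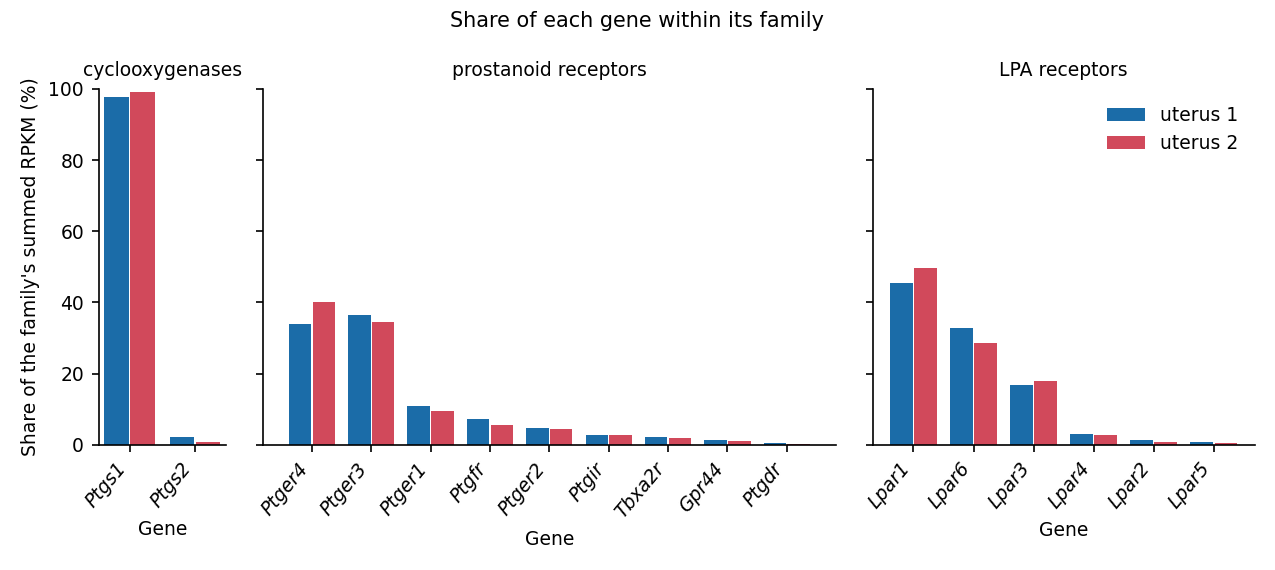
Share of each gene in the summed RPKM of its family (%, from 0 to 100) for 2 cyclooxygenases, 9 prostanoid receptors and 6 LPA receptors, with a bar for each uterus. Ptgs1 holds 97.9% and 99.2% of the cyclooxygenase sum, Ptger4 and Ptger3 hold the largest shares of the prostanoid receptors, and Lpar3 is the third of the LPA receptors with 16.7% and 17.8%.

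The gene for prostaglandin inactivation was at a level close to that of Ptgs1. Hpgd (NM_008278, chromosome 8, plus strand, 58773349 to 58799843, 7 exons), which encodes 15-hydroxyprostaglandin dehydrogenase, lay at 16.5 (uterus 1) and 15.6 RPKM (uterus 2), on 109 and 114 reads, with a mean of 16.1 ± 0.676 RPKM (SD, n = 2). The ratio of Hpgd to Ptgs1 was 0.946 in uterus 1 (95% interval 0.741 to 1.20) and 0.760 in uterus 2 (0.603 to 0.952). Hpgd was the lower of the pair in both libraries, but in uterus 1 the interval includes equal levels. All 7 genes of transport and breakdown were detected in both uteri. The reductases that act after Hpgd lay at 23.2 ± 2.45 RPKM for Zadh2, 14.8 ± 2.74 RPKM for Ptgr2 and 10.3 ± 1.68 RPKM for Ptgr1. The export pump gene Abcc4 lay at 15.7 ± 0.0644 RPKM, above the uptake carrier genes Slco2a1, at 4.37 ± 1.23 RPKM, and Slco3a1, at 5.28 ± 0.845 RPKM.

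Lpar3 was detected at a moderate level and was the third of the LPA receptor genes. Lpar3 (NM_022983, chromosome 3, plus strand, 145883925 to 145949178, 3 exons) lay at 13.5 (uterus 1) and 15.8 RPKM (uterus 2), on 129 and 168 reads, with a mean of 14.7 ± 1.65 RPKM (SD, n = 2), percentile 76.4 of all genes. Lpar1 lay at 36.7 and 44.2 RPKM and Lpar6 at 26.4 and 25.4 RPKM, both above Lpar3 in both libraries. Lpar4 followed at 2.36 ± 0.0321 RPKM, Lpar2 at 0.902 ± 0.342 RPKM and Lpar5 at 0.499 ± 0.268 RPKM. The level of Lpar3 was 0.367 of that of Lpar1 in uterus 1 (95% interval 0.300 to 0.447) and 0.358 in uterus 2 (0.301 to 0.425). With the smallest reads that the values of Lpar1 allow, the intervals were 0.295 to 0.456 and 0.296 to 0.433. Of the 5 balances compared, that of Lpar3 over Lpar1 differed least between the 2 libraries, with an SD of 0.03 on the log2 scale. Lpar3 held 16.7% and 17.8% of the summed RPKM of the 6 receptors.

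Of the 7 genes for LPA production and breakdown, 5 were detected in both uteri. Ppap2b, one of the lipid phosphate phosphatases that remove LPA, was highest at 82.9 ± 2.23 RPKM, followed by its relatives Ppap2a at 22.6 ± 2.92 RPKM and Ppap2c at 14.7 ± 1.62 RPKM. Enpp2, which encodes autotaxin, the main enzyme that makes LPA outside cells, lay at 12.7 ± 1.53 RPKM, near the level of Lpar3. Pla1a lay at 14.5 ± 2.38 RPKM, but it encodes a phospholipase that acts on phosphatidylserine. Liph, which makes LPA from phosphatidic acid, lay at 0.354 ± 0.112 RPKM, and Lipi was listed at 0.

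The last comparison was between the 2 uteri, gene by gene. None of the 9 genes that averaged 1 RPKM or more differed 2-fold or more, against 2.60% of all such genes in the table. A two-sided exact binomial test on the recovered reads, which compares these 2 libraries and not conditions, called 0 of the 10 genes at a Benjamini-Hochberg adjusted p under 0.05, against 4.76% of all genes tested. Of the 10, 2 had an unadjusted p under 0.05 in this test, against 15.7% of all genes. Ptgfr was lower in uterus 2, with a log2 ratio of -0.43 (95% interval -0.84 to -0.03), an unadjusted p of 0.029 and an adjusted p of 0.242 in the exact test. Ptges was higher in uterus 2, with a log2 ratio of 0.45 (0.00 to 0.93), an unadjusted p of 0.044 and an adjusted p of 0.299 in the exact test. A p that misses the threshold does not show equal levels: the interval for Ptges reaches 0.93, and that for Ptgs2, on 6 and 3 reads, runs from -3.78 to 1.08. The interval for Pla2g4a ran from -0.17 to 0.27. That for Ptger4 ran from -0.02 to 0.38 at its larger read numbers and from -0.10 to 0.47 at the smallest its values allow. For Ptgis the interval ran from -0.66 to 0.02 at the reads taken and from -1.90 to 1.23 at the smallest.

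**Figure D4:**
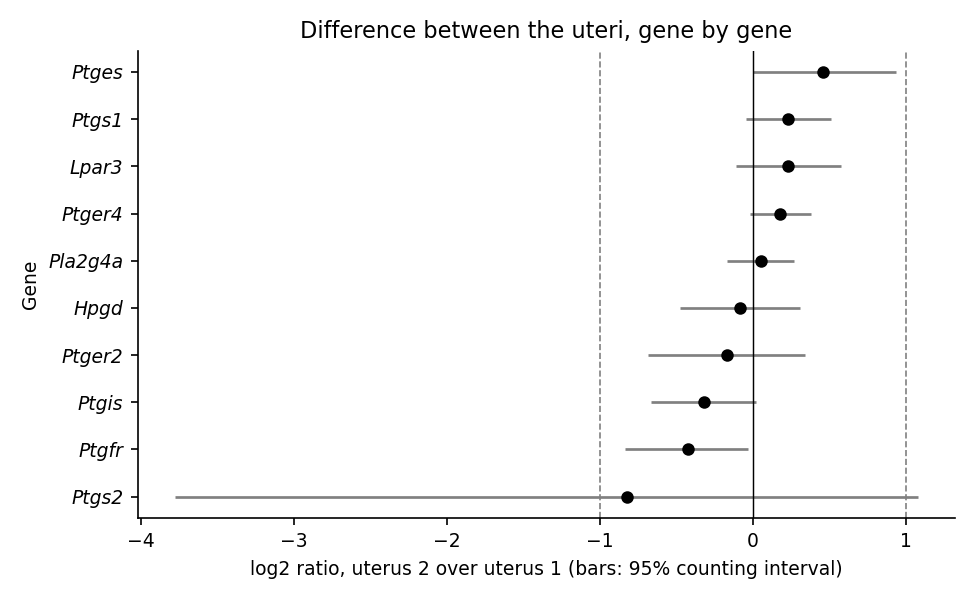
Log2 ratio of uterus 2 over uterus 1 (pseudocount 0.1 RPKM) for the 10 genes, with exact 95% binomial counting intervals as bars and dashed lines at a 2-fold difference. With this pseudocount the point of every gene lies inside the dashed lines, and only the interval of Ptgs2 crosses them. The intervals carry no pseudocount. Without it the Ptgs2 level in uterus 2 was 0.450 of that in uterus 1, which is beyond the lines. At the smallest reads its values allow, the interval of Ptgis, -1.90 to 1.23, would also cross them.

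Of the 10 genes, 5 were higher and 5 lower in uterus 2. The 9 that averaged 1 RPKM or more had a median log2 ratio of 0.05, beside 0.0007 over all 13647 such genes. The coefficient of variation between the libraries had a median of 11.3% over the 10 genes, beside 8.27% over all genes that averaged 1 RPKM or more. It was smallest for Pla2g4a at 2.47% and Hpgd at 4.21%, and largest for Ptgs2 at 53.6%, followed by Ptges at 22.5% and Ptgfr at 21.1%. Of the 72 other genes of the pathway lists, 58 had enough reads for the exact binomial test and 3 were called, a share near the 4.76% called over all genes. All 3 were higher in uterus 2. Cbr2 lay at 102.4 (uterus 1) and 138.1 RPKM (uterus 2), with an adjusted p of 0.00028 in the exact test. Alox15 of the lipoxygenase branch is described with that branch. The third, Lpar1, had a log2 ratio of 0.27 and an adjusted p of 0.047 in the exact test on 496 and 662 reads. With the smallest reads its values allow, 248 and 331, the adjusted p of Lpar1 was 0.279, so that call rests on the length chosen for its transcript.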

How the data were processed

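RNA of whole uterus was measured by RNA sequencing in 2 libraries of 1 group. Trizol extraction and the TruSeq RNA kit are named per the labels' protocols, and poly-A selection and the HiSeq2500 instrument in the series' design text. The submitters' processing notes name TopHat, edgeR and build mm9. Versions, the gene annotation and whether counting used strand are not given in the sources used here. The authors deposited RPKM, reads scaled to transcript length and library total, in a table of 22740 genes and in an annotated copy. All 22740 values are identical in both. Deposited starts count from 0, and coordinates are printed counted from 1.

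RPKM values are not counts, but each is a whole number of reads divided by a transcript length and a library total. The lowest values of single-exon genes gave scaling totals of 3834174 (uterus 1) and 4256101 (uterus 2), and 100% of the 209 and 217 single-exon values above 0 came out whole within 0.001 reads, the totals having been fitted on the low values among them. For each gene the reads per base were written as a fraction, and the multiple nearest the length of the GENCODE M1 transcript, fitted to the deposited ends, was taken. For 9 of the 10 genes (all but Ptger4) this length was matched to the base. For 1832 of 17426 genes without a usable transcript, the smallest possible reads were taken. Recovered reads summed to 3837285 and 4268590, with a median of 117 and 129 for genes that averaged 1 RPKM or more. The recovery and the test were also run on simulated data, but no outcome is given here and nothing is concluded from those runs.

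With 1 group no comparison between groups exists. Ratios divide uterus 2 by uterus 1 on the log2 scale, with 0.1 RPKM added to each value as a pseudocount, which understates the change of low genes. The two-sided exact binomial test covered all 15136 genes with at least 6 reads in sum, with Benjamini-Hochberg adjustment at 0.05. The labels do not say whether the libraries differ in more than the animal, so p-values measure only the difference between these 2 libraries. Named genes are the 10, every gene of the 7 pathway lists averaging 10 RPKM or more, or 2-fold or more apart while averaging 1 RPKM or more, the highest of each list, and all prostanoid and LPA receptors. Others were named after their values were seen. The 10 genes and all lists were chosen with earlier results of these data known, and the family shares and motifs were added during the work. Of 83 listed symbols, 82 were analysed. The symbol not found, Ptgdr2, is in the table as Gpr44. Scripts ran in Python 3.11.15 with scipy 1.17.1 and pandas 2.3.3.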

Additional observations from a re-analysis of the deposited data

How the results depend on the processing

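All 10 mean levels stayed within 1 SD of their value under 4 alternatives each (either library alone, equal summed RPKM, the annotated table). A mean of 2 values always lies within 1 SD of both, and the annotated table holds the same values, so this is no measure of stability. All 10 log2 ratios stayed inside their counting intervals under the pseudocounts of 0.01 and 1 RPKM, equal summed RPKM and centring. This too is a weak check, since equal sums and centring hardly move any ratio. The wide interval of Ptgs2 holds both its ratio of -1.11 at 0.01 RPKM and that of -0.24 at 1 RPKM. The detected genes numbered 9 at 0.5 and 2 RPKM, with equal sums and with either library alone, and 6 at 10 RPKM. Of the pathway lists, 28 genes were at 10 RPKM or more against 53 detected at 1 RPKM, and the higher threshold gives fewer by construction. The pseudocount of 1 RPKM moved 2 balances, to 3.97 for Ptgs1 over Ptgs2 and to -1.40 for Lpar3 over Lpar1. The first shift comes from the low Ptgs2 values. The second is small in size and exceeds only the narrow SD of that pair, 0.03. With either library alone these ranged from 5.20 to 6.25 and from -1.47 to -1.44. The count of genes at least 2-fold apart was 0 under every pseudocount, filter and scaling run one at a time, and all but the run without a filter left out Ptgs2 for its level. With a smaller pseudocount Ptgs2 passes that fold, with a log2 ratio of -1.11 at 0.01 RPKM against -0.82 at 0.1 RPKM. The exact binomial test called 0 of the 10 genes under each of 4 alternatives (a minimum of 20 reads left 9 tested), with 2 at an unadjusted p under 0.05 and a smallest adjusted p between 0.223 and 0.278. Over all genes it called 720 of 15136, and 586 of 14899 with the smallest possible reads. Depth limits Ptgs2 most, on 6 and 3 reads. No paired analysis was possible because all libraries belong to 1 group.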

Other observations

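Arachidonic acid is also the substrate of lipoxygenases, which make leukotrienes and hydroxy fatty acids, and 9 of the 14 genes of that branch were at 1 RPKM or more in both uteri. The highest was Lta4h, the leukotriene A4 hydrolase, at 41.9 ± 1.06 RPKM (SD, n = 2). Alox15 encodes a lipoxygenase that oxygenates the 12 and 15 positions of arachidonic acid, and it lay at 24.3 (uterus 1) and 41.9 RPKM (uterus 2). These values rest on 225 and 431 reads, a log2 ratio of 0.78 with a Benjamini-Hochberg adjusted p of 3.5e-09 in the exact binomial test, which compares these 2 libraries. With the smallest possible reads the adjusted p of Alox15 was 3.2e-09 in that test. Alox5ap, the 5-lipoxygenase activating protein, lay at 23.8 ± 1.72 RPKM, far above Alox5 itself at 1.66 ± 0.125 RPKM. Alox12e, an epidermal-type lipoxygenase gene, lay at 10.1 ± 0.289 RPKM. Ltc4s, the leukotriene C4 synthase gene, lay at 3.55 (uterus 1) and 1.20 RPKM (uterus 2) on 8 and 3 reads, with an adjusted p of 0.509 in the exact binomial test. Of the leukotriene receptor genes, Cysltr1 lay at 2.88 ± 0.994 RPKM, Ltb4r1 at 1.44 ± 0.609 RPKM and Cysltr2 at 0.565 ± 0.430 RPKM. Ltb4r2 was listed at 0 in uterus 1 and at 0.163 RPKM in uterus 2 on 1 read, and Alox12b was listed at 0 in both. Of the 6 leukocyte markers, Ptprc (17.7 and 21.6 RPKM in uterus 1 and 2), Csf1r, Itgam and Lyz2 were higher in uterus 2. Cd68 (15.3 and 14.2 RPKM) and Emr1 (19.2 and 17.3 RPKM) were lower in uterus 2. The part of leukocytes in the Alox15 difference was not tested.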
